A study of Mus musculus with 18 samples.

Results

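The polo-like kinases are a family of serine/threonine kinases, and messenger RNA of 4 of them, Plk1, Plk2, Plk3 and Plk4, was followed here in mouse embryonic stem cells after DNA damage. The members were taken by gene symbol from the probes naming a single gene, 4 of 19935 genes, and each had 1 probe, so no choice between probes arose. They were chosen by their measured changes on these arrays, after adriamycin and after ultraviolet light (UV) in one line and after adriamycin in the other. Their values in those comparisons are therefore a description and carry no p-value. Plk5, the remaining family member, is no member of the chosen set and was tested as another gene of the pathway.

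The 18 arrays came from 2 sources of embryonic stem cells, both grown with leukemia inhibitory factor. R1E cells, an embryonic stem cell line, received 0.5 µM adriamycin for 8 hours, 25 J/m² UV, likewise labelled 8 hours, or mock treatment (n = 4 arrays each). Embryonic stem cells of genotype p53-/-, on a 129X1 x 129S1 background, received 0.5 µM adriamycin for 8 hours or no treatment (n = 3 arrays each), and had no UV arm. Adriamycin (doxorubicin) poisons topoisomerase II and breaks DNA, while UV puts bulky lesions on its bases. The labels give neither the p53 genotype of R1E nor the number of p53-/- clones. They do not say which arrays stand for separate cultures either, so p-values measure only how far these arrays scatter, and that scatter may be technical.

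Polo-like kinases carry an N-terminal kinase domain and C-terminal polo boxes that dock the enzyme onto its partners. PLK1 drives entry into mitosis, spindle assembly and cytokinesis, and is switched off when DNA damage holds cells in G2. PLK4 is the kinase that starts centriole duplication. PLK2 and PLK3 were first met as products of growth-factor-induced immediate early genes and respond to stress, and Plk2 is a known p53 target. PLK5 is the least studied member and is known mainly from brain.

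The sequence in front of each gene is shown because the members differ in the short elements it holds. The windows come from RefSeq, build GRCm38.p6, and ran from 250 bases before to 50 bases after the annotated start. They were searched on both strands for TTTGAA or TTCGAA (the CHR element of mitotic genes), for the p53 response element and, chosen after the sequences were seen, for CCAAT and for TGACGTCA (the cAMP response element). Capitals below mark matches to these motifs, position 1 is the annotated first base of the transcript, and each stretch runs 5′ to 3′ on the strand of the gene. The 100 bases just before the start are given for each gene, and for Plk1 also the 30 bases around its CHR match:
Plk1, chr7:122159335-122159434, plus strand: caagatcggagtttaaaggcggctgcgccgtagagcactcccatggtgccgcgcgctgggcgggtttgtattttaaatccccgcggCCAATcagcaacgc
Plk1, chr7:122159453-122159482, plus strand: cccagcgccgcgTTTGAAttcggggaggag
Plk2, chr13:110394944-110395043, plus strand: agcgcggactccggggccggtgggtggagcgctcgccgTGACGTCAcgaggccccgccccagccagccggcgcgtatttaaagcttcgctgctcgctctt
Plk3, chr4:117133964-117134063, minus strand: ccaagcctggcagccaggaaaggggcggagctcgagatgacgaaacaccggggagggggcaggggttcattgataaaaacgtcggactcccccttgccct
Plk4, chr3:40799851-40799950, plus strand: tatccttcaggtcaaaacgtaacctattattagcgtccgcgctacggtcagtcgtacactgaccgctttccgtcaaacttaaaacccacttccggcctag
Plk5, chr10:80356359-80356458, plus strand: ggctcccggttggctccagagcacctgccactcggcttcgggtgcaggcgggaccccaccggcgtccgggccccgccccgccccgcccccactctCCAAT

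Plk1 held 1 CCAAT box and 1 CHR element, the latter starting at position 31 inside the annotated transcript. Of 32851 windows of the same length, 19.2% held a CHR element and 37.4% a CCAAT box. Plk2 held 1 full cAMP response element starting at position -62, a motif found in 1.79% of windows. The windows of Plk3 and Plk4 held none of the 4 motifs, and that of Plk5 held 1 CCAAT box. None of the 5 windows held a p53 response element or a single one of the 2 repeats that make it up (both repeats with up to 13 bases between them are in 0.0731% of windows, a single repeat in 8.36%), which says only that these letters are not in these windows.

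All levels below are log2 intensities, a scale on which the array medians ran from 5.30 to 5.61, and precision is limited by how many arrays there are. The standard error (SE) of a log2 change had a median of 0.140 over genes in the p53-/- set and of 0.0634 in R1E. Untreated p53-/- replicate 3 correlated least with the other arrays of its group (mean r = 0.985, where every other array had 0.989 or more). The sets were normalized separately, so levels are compared only within a set. All 10 pluripotent stem cell markers, Pou5f1, Nanog and Sox2 among them, lay above the level of the median gene in every group. Markers of fibroblasts, the cells often used as feeders, averaged 5.38 to 5.52 on R1E adriamycin arrays, 5.35 to 5.47 on UV arrays and 5.15 to 5.29 on mock arrays, with 6 of 10 above the median gene. On p53-/- arrays they averaged 7.07 to 7.39 after adriamycin and 7.31 to 7.34 untreated, with 8 of 10 above it, and their part in the p53-/- results was not tested. After adriamycin in R1E, 9 of the 10 pluripotency markers fell (limma, adjusted p under 0.05) and of the 10 fibroblast markers 3 rose and 1 fell (median 0.018). Of all genes 22.1% rose and 25.6% fell there. After UV 7 pluripotency markers fell and none rose, and 4 fibroblast markers rose and none fell. Of all genes 22.6% rose and 21.2% fell after UV. No marker of either list was called in p53-/- cells. In bulk RNA, fewer cells of a type and less RNA per cell cannot be told apart.

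In R1E cells each member had its own order of levels over the treatments. Plk2 was highest after adriamycin, a little lower after UV and far lower in mock cells. Plk1 ran the other way, lowest after adriamycin and highest in mock cells. Plk3 was highest after UV and lowest after adriamycin, with mock cells between. Plk4 was lower after both treatments, whose arrays overlapped. The 4 log2 changes after adriamycin spanned 4.19 and those after UV 3.14.

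**Figure D1:**
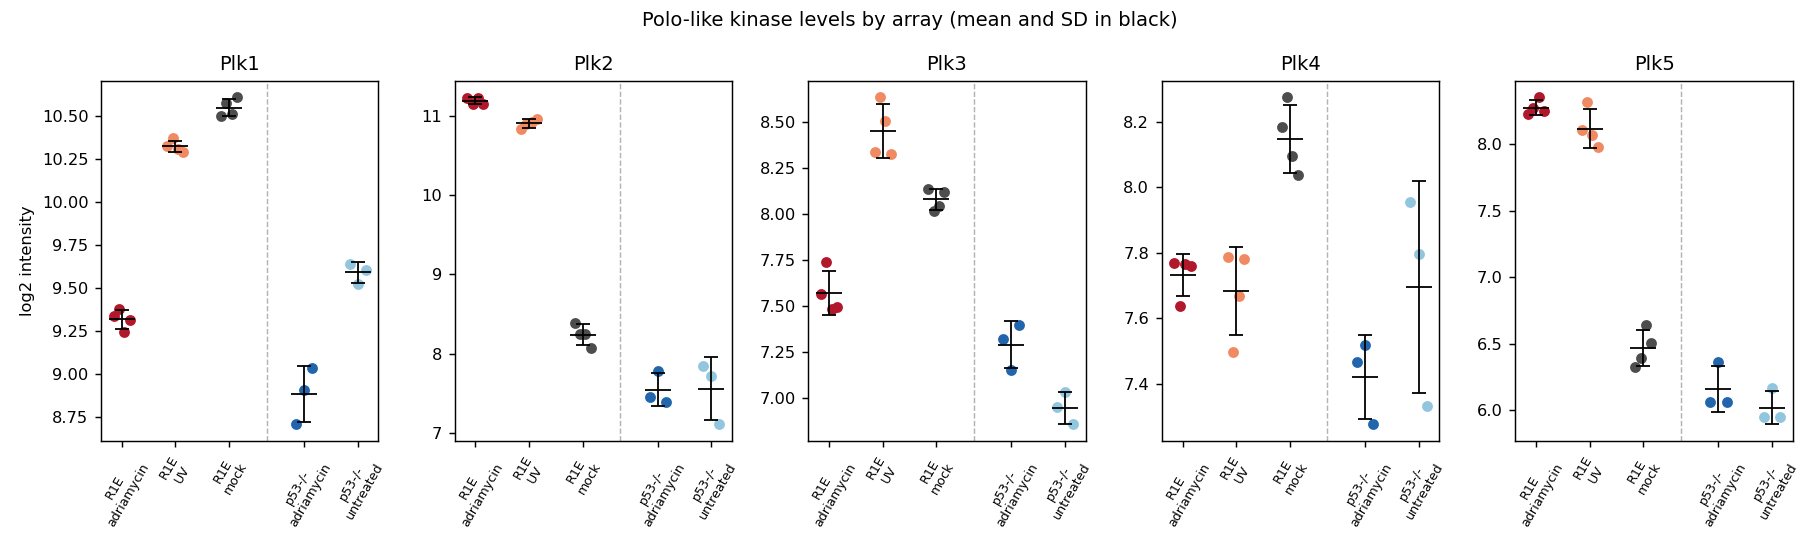
Level of each polo-like kinase on every array (y axis, log2 intensity, with its own range per gene) by group (x axis), with the R1E arrays left of the dashed line and the p53-/- arrays right of it. Points are arrays and black bars the group mean and SD. Plk2 lies at 10.84 or above on all 8 treated R1E arrays and at 8.39 or below on the mock arrays, while its 2 p53-/- groups overlap.

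Plk2, which acts at centrioles and in stress and synaptic signalling, had the widest change of the 4 in R1E. Its level was 11.23, 11.16, 11.23 and 11.15 on the R1E adriamycin arrays, 10.84, 10.90, 10.93 and 10.97 on the UV arrays, and 8.39, 8.24, 8.25 and 8.07 on the mock arrays. The 3 groups did not overlap in any pair. The log2 change was 2.96 ± 0.06 (SE) after adriamycin, a 7.77-fold higher level and the 14th highest change of all genes. After UV it was 2.67 ± 0.06, or 6.39-fold, the 5th highest. Set directly against UV, adriamycin gave a level 0.28 ± 0.06 higher.

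In p53-/- cells Plk2 read 7.45, 7.78 and 7.39 on the adriamycin arrays, against 7.84, 7.72 and 7.11 on the untreated arrays. These groups overlapped, with a log2 change of -0.02 ± 0.19. Without untreated replicate 3, the lowest of its group, the change was -0.24 ± 0.14. The adriamycin effect was larger in R1E by 2.97 ± 0.20 on the log2 scale, or 3.20 ± 0.15 without that array. Leaving out any 1 array gave p53-/- changes from -0.24 to 0.13 and differences from 2.83 to 3.20. For this and every later difference between the lines, the effects of line, genotype, array set and software cannot be told apart.

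Plk1, the mitotic kinase, was lower after both treatments. It read 9.34, 9.38, 9.24 and 9.31 on the R1E adriamycin arrays, 10.32, 10.37, 10.31 and 10.29 on the UV arrays, and 10.50, 10.57, 10.51 and 10.61 on the mock arrays. No pair of groups overlapped, and the UV arrays lay close under the mock arrays. The log2 change was -1.23 ± 0.05 after adriamycin, a 2.35-fold lower level, and -0.23 ± 0.05 after UV, or 1.17-fold lower. Adriamycin set directly against UV gave a 2.01-fold lower level, the 54th lowest difference of all genes.

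Plk1 was also lower after adriamycin in p53-/- cells. It read 8.71, 8.91 and 9.03 on the adriamycin arrays and 9.64, 9.52 and 9.61 on the untreated arrays, groups that did not overlap. The log2 change was -0.71 ± 0.13, a 1.63-fold lower level and the 46th lowest of all genes in that set. Leaving out any 1 array kept it between -0.78 and -0.62. The adriamycin effect in R1E lay 0.52 ± 0.14 below that in p53-/- cells. Plk1 is thus the member whose direction after adriamycin was the same in both lines with no overlap of arrays in either.

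Plk3, a stress-responsive kinase of the G1 phase and of checkpoint signalling, was lower after adriamycin and higher after UV. It read 7.57, 7.74, 7.49 and 7.50 on the R1E adriamycin arrays, 8.34, 8.64, 8.51 and 8.33 on the UV arrays, and 8.14, 8.02, 8.05 and 8.12 on the mock arrays. No pair of groups overlapped. The log2 change was -0.51 ± 0.07 after adriamycin, 1.42-fold lower, and 0.37 ± 0.07 after UV, 1.29-fold higher. The direct difference of adriamycin and UV was -0.88 ± 0.07.

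Adriamycin went with a higher Plk3 level in p53-/- cells. The adriamycin arrays read 7.33, 7.15 and 7.40, and the untreated arrays 6.95, 7.04 and 6.86, without overlap. The log2 change was 0.34 ± 0.13, or 1.27-fold higher, and stayed between 0.29 and 0.41 with any 1 array left out. The adriamycin effect in R1E lay 0.85 ± 0.15 below that in p53-/- cells. Plk3 was the member with opposite signs in the lines and no overlap of arrays in either.

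Plk4, which sets centriole number, was lower after both treatments. It read 7.77, 7.64, 7.77 and 7.76 on the R1E adriamycin arrays, 7.79, 7.50, 7.67 and 7.78 on the UV arrays, and 8.19, 8.27, 8.10 and 8.04 on the mock arrays. Both treated groups lay below all mock arrays and overlapped each other. The log2 change was -0.42 ± 0.07 after adriamycin and -0.47 ± 0.07 after UV, and the direct difference was 0.05 ± 0.07, with a 95% interval from -0.10 to 0.20. The p53-/- values were 7.47, 7.52 and 7.28 on the adriamycin arrays and 7.96, 7.80 and 7.33 on the untreated arrays, which overlapped through untreated replicate 3. The change there was -0.27 ± 0.16, and -0.46 ± 0.13 without that array. The difference of the adriamycin effects, R1E minus p53-/-, was -0.14 ± 0.18 and took the other sign, 0.04 ± 0.15, without it. Leaving out any 1 array gave p53-/- changes from -0.46 to -0.14 and differences from -0.27 to 0.04.

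**Figure D2:**
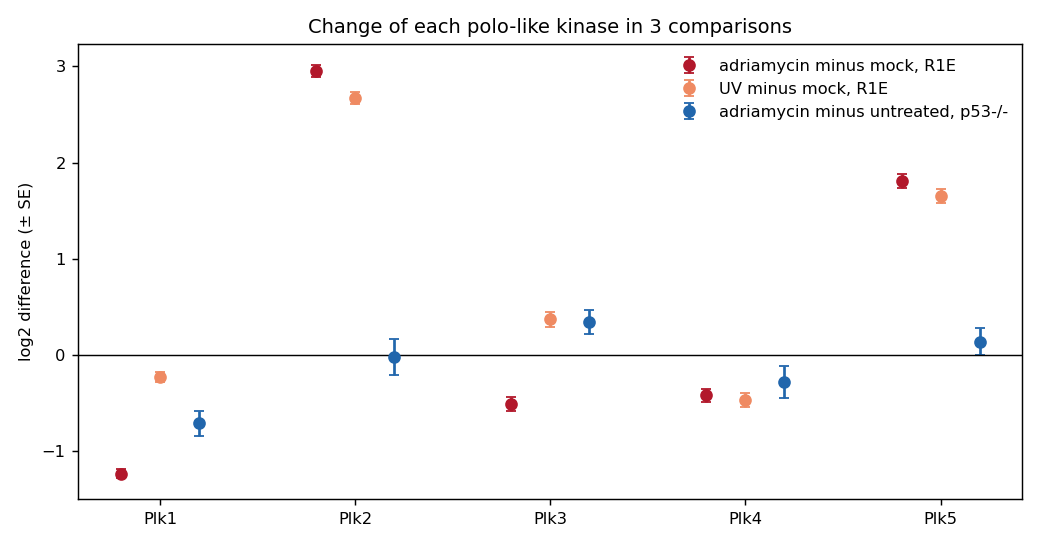
Log2 difference of each polo-like kinase (y axis, points, with bars of 1 SE) after adriamycin and UV in R1E cells and after adriamycin in p53-/- cells. Plk2 and Plk5 lie far above 0 in both R1E comparisons and within 0.15 of it in p53-/- cells, Plk1 and Plk4 lie below 0 in all 3, and Plk3 lies below 0 only after adriamycin in R1E.

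Set against all genes, 4 of the 4 members passed the fit's threshold after adriamycin in R1E, 1 higher and 3 lower, where 47.7% of genes did (22.1% higher, 25.6% lower). After UV it was also 4 of 4, with 2 higher and 2 lower, where 43.9% of genes did (22.6% higher, 21.2% lower). For adriamycin against UV 3 of 4 passed, Plk2 higher and Plk1 and Plk3 lower, where 42% of genes did (19.8% higher, 22.2% lower). None of the 4 passed in p53-/- cells, where 0.0953% of genes or 19 in all did (0.015% higher, 0.0803% lower), with 2319 genes at an unadjusted p under 0.05 in limma. For the difference of effects 3 of 4 passed, Plk4 not among them, where 21.7% of genes did (10.4% higher, 11.4% lower).

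Groups without overlap were counted the same way. All 4 members met this after adriamycin in R1E, where 45.6% of genes did (20.8% higher, 24.8% lower). All 4 met it after UV, where 40.7% did (20.6% higher, 20.2% lower). Adriamycin and UV arrays did not overlap for 3 of 4, where 38.3% of genes met this (18.4% higher, 19.9% lower). The p53-/- groups did not overlap for 2 of 4, where 17.5% of genes met this (12.3% higher, 5.22% lower). Adriamycin and UV share the mock arrays. These contrasts chose the members, and nothing is read from the shares.

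Plk5 was tested as a gene outside the chosen set and was higher after both treatments. It read 8.23, 8.27, 8.35 and 8.25 on the R1E adriamycin arrays, 8.11, 8.32, 8.07 and 7.98 on the UV arrays, and 6.32, 6.39, 6.64 and 6.51 on the mock arrays. Plk5 rose 3.51-fold after adriamycin (log2 change 1.81 ± 0.08, limma adjusted p = 5.86e-12) and 3.14-fold after UV (1.65 ± 0.08, adjusted p = 5.31e-11), with every treated array above every mock array. Adriamycin and UV differed by 0.16 ± 0.08 (adjusted p = 0.108), and by 0.23 (adjusted p = 0.0188) without UV replicate 2, the highest UV array. On the p53-/- arrays Plk5 read 6.06, 6.36 and 6.06 after adriamycin and 5.95, 6.16 and 5.95 untreated, groups that overlapped (log2 change 0.14 ± 0.14, adjusted p = 0.733). The adriamycin effect was larger in R1E by 1.67 ± 0.16 (test of the difference of effects, made outside limma, adjusted p = 1.97e-07).

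The genes whose levels ran most like each member over the 12 R1E arrays were found by Pearson correlation, given as a description. The points share arrays and fall into 3 treatment groups, so r after removing the group means is given beside it as r within groups. For Plk2 the nearest genes were Tmem43, Gpx3, Trp53inp1 and Gnb1l, with r from 0.9974 to 0.9977 (within groups 0.309 to 0.407). Gpx3, an extracellular glutathione peroxidase, had log2 changes of 2.73 after adriamycin, 2.44 after UV and 0.05 in p53-/- cells. Trp53inp1, a known p53 target, had 1.24, 1.07 and 0.34. Gnb1l had 1.91 and 1.75 in R1E and also 0.80 in p53-/- cells. Over the 6 p53-/- arrays r with Plk2 was 0.221 for Tmem43, -0.803 for Gpx3, 0.315 for Trp53inp1 and -0.14 for Gnb1l.

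For Plk1 the nearest genes were Ccne1 (cyclin E1), the receptor tyrosine kinase inhibitor Spry2, Urb2 and Plekhg5, with r from 0.9914 to 0.9935. Within groups r was between -0.12 and 0.549. Ccne1 had 0.28 in p53-/- cells, where Plk1 had -0.71 (r = -0.881 over those 6 arrays). Over the same 6 arrays r with Plk1 was 0.808 for Spry2, 0.411 for Urb2 and 0.431 for Plekhg5. For Plk3 they were the mitotic kinesin Kif20a, Etv4, Crtc2 and the kinase gene Pim2 (r from 0.9772 to 0.9825, within groups 0.664 to 0.884). Kif20a was lower after adriamycin (-0.43) and higher after UV (0.24) in R1E, as Plk3 was. It had -0.30 in p53-/- cells, where Plk3 had 0.34 (r = -0.871 over those 6 arrays). There r with Plk3 was 0.702 for Etv4, -0.877 for Crtc2 and -0.277 for Pim2. For Plk4 they were Fbxo11, the checkpoint loader Rad17, Capza2 and Lsm14a (r from 0.9722 to 0.978, within groups 0.82 to 0.916). No r over all R1E arrays moved by 0.05 or more under the alternatives tried. The r within groups and the r over the p53-/- arrays were not recomputed, so their stability was not tested.

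**Figure D3:**
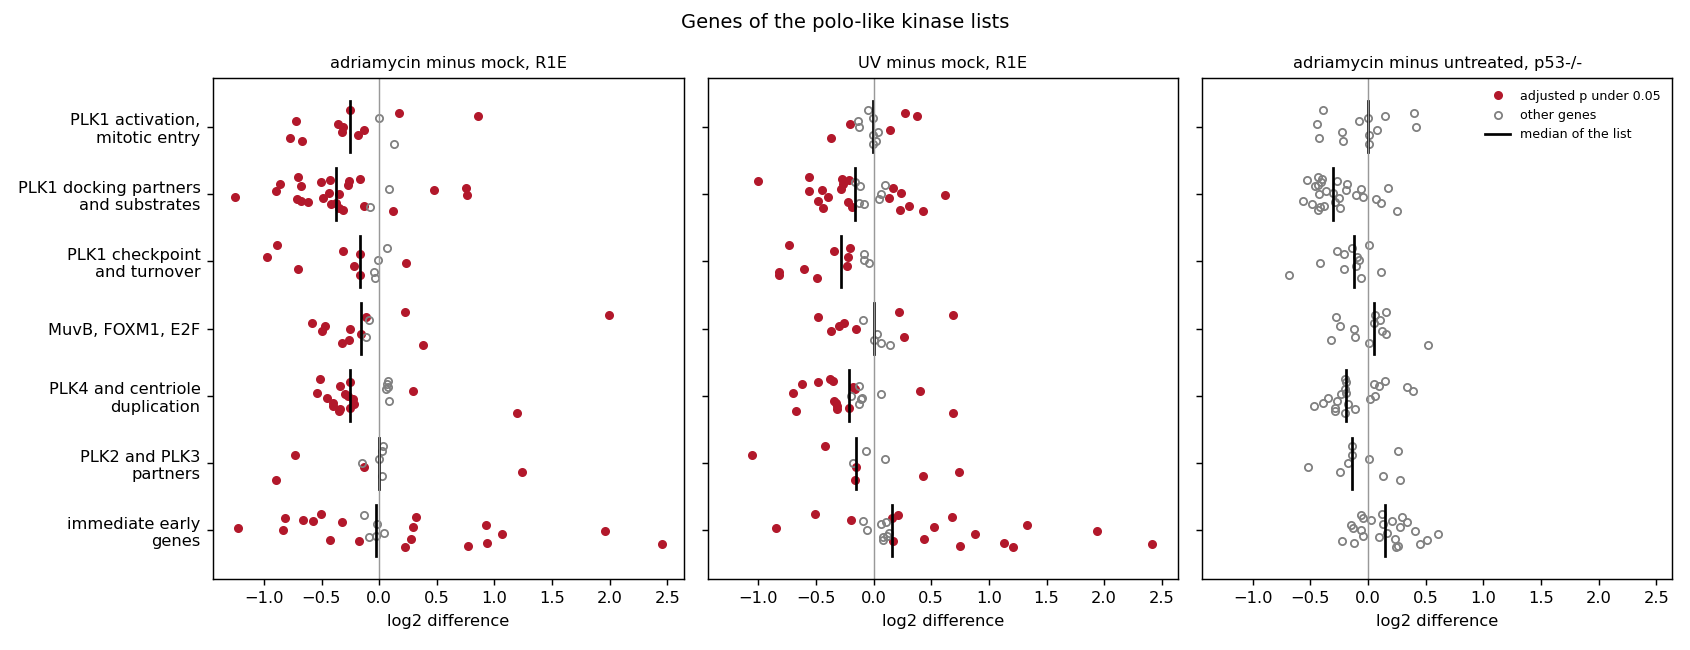
Log2 differences (x axis) of the genes in 7 lists of polo-like kinase partners and related genes (rows), after adriamycin and UV in R1E cells and after adriamycin in p53-/- cells. Filled points passed the test, open points did not, and black bars are list medians. Filled points lie mostly below 0 in the PLK1 and PLK4 rows in R1E, except for mitotic entry genes after UV, and no point is filled in the p53-/- panel.

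The partners of PLK1 were followed next, starting with the genes that activate it at mitotic entry. Beside the counts of this and later lists stand the shares of all genes. After adriamycin in R1E 22.1% rose and 25.6% fell, and after UV 22.6% rose and 21.2% fell. Against UV, 19.8% were higher after adriamycin and 22.2% lower. Of 13 measured genes 9 fell and 2 rose after adriamycin in R1E (1 rose with arrays centred on their medians), with a median log2 change of -0.256 against -0.018 for all genes. Bora, the cofactor that opens PLK1 to its activator, fell (-0.77 ± 0.05, limma adjusted p = 3.85e-09), as did Aurka, the Aurora kinase that phosphorylates PLK1 (-0.67 ± 0.05, adjusted p = 4.77e-09), and the mitotic kinase Cdk1 (-0.72 ± 0.09, adjusted p = 3.51e-06). Mastl, the Greatwall kinase that restrains a mitotic phosphatase, rose (0.86 ± 0.06, adjusted p = 8.61e-09). After UV 3 rose and 2 fell (5 fell with arrays centred on their medians, and 1 without mock replicate 1 or without UV replicate 4), with a median of -0.006 against 0.032 for all genes. Bora fell less (-0.37) while Aurka had 0.02 and Cdk1 -0.14. Mastl (0.38), the inhibitory kinase Pkmyt1 (0.27) and the phosphatase Cdc25a (0.14) rose, the last no longer with arrays centred on their medians (0.05, adjusted p = 0.451). Set against UV directly, 8 of the 13 were lower after adriamycin and 1 was higher, Aurka by -0.69 and Mastl by 0.48.

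PLK1's docking partners and substrates form the longest list. Of 27 genes 21 fell and 4 rose after adriamycin in R1E (median -0.374), and 13 fell and 7 rose after UV (median -0.157), or 4 rose with arrays centred on their medians. Fbxo5, the inhibitor of the anaphase-promoting complex that PLK1 marks for destruction, fell by 1.25 on the log2 scale (SE 0.08, adjusted p = 5.83e-10). The central-spindle genes Kif23 (-0.90) and Racgap1 (-0.86) fell too. Gtse1, a G2 protein that PLK1 phosphorylates, rose after adriamycin (0.76 ± 0.05, adjusted p = 5.97e-10) and after UV (0.62 ± 0.05, adjusted p = 1.58e-08). After UV the cohesin subunit gene Stag2 (-0.999 ± 0.06, adjusted p = 7.87e-10), the cohesin release factor gene Wapl (-0.56) and Kif23 (-0.56) fell furthest. Against UV, 5 of the 27 were higher after adriamycin, the centrosome gene Kiz furthest (0.92). The other 19 called genes were lower, led by Fbxo5 (-0.86), the helicase gene Ercc6l (-0.76) and Kif20a (-0.67).

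None of these 27 genes passed the test in p53-/- cells by this fit, although their median change was -0.305 against 0.058 for all genes and 14 of them were lower at an unadjusted p under 0.05. With array weights, which down-weight noisier arrays, 12 of them were called lower, and 3 without untreated replicate 3. Plk1 itself had -0.71 there. The other 6 lists had no called gene in p53-/- cells by limma either. Of all 19935 genes, 2319 had an unadjusted p under 0.05 there. Array weights called 702 of all genes higher and 736 lower, and leaving out untreated replicate 3 called 135 higher and 307 lower. Beside these the small list counts that follow are a description only. At an unadjusted p under 0.05, 2 of 13 mitotic entry genes were higher and 3 lower. Of 12 checkpoint genes 2 were lower, and of 13 transcription regulators 1 was higher. By that measure 2 of 21 centriole genes were higher and 3 lower. Of 9 partners of PLK2 and PLK3, 1 was higher and 1 lower, and 4 of 24 immediate early genes were higher. With array weights the calls were 2 higher and 3 lower for mitotic entry, 2 lower for the checkpoint, 1 higher and 2 lower for the transcription regulators, 1 higher and 4 lower for centrioles, 1 lower for partners of PLK2 and PLK3 and 3 higher for immediate early genes. Without untreated replicate 3 they were 1 higher and 1 lower for mitotic entry, 1 lower each for the checkpoint, centrioles and partners of PLK2 and PLK3, 2 lower for the transcription regulators and 1 higher for immediate early genes.

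Most genes of the checkpoint and of PLK1 turnover fell in R1E. Of 12, 9 fell and none rose after UV (median -0.286), and 7 fell and 1 rose after adriamycin (median -0.164), or 4 fell and 2 rose with quantile normalization. Atr, the kinase that answers stalled forks, was at -0.82 ± 0.04 after UV (adjusted p = 2.51e-10) and Btrc, which targets PLK1-marked proteins for destruction, at -0.82 ± 0.06 (adjusted p = 2.26e-08). Usp28 fell after both treatments (-0.74 after UV, -0.88 after adriamycin). Fzr1, the coactivator through which PLK1 is degraded, fell by 0.97 (SE 0.06, adjusted p = 2.88e-10) after adriamycin, and the phosphatase gene Cdc14b by 0.70. Chek2 rose slightly (0.23), no longer with arrays centred on their medians (0.14, adjusted p = 0.0899). Adriamycin against UV had 5 of the 12 higher and 1 lower (2 lower without adriamycin replicate 3 or UV replicate 2), Btrc at 0.77, Atr at 0.66 and Atm at 0.45, with Fzr1 at -0.75.

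Regulators of mitotic gene transcription came next. Rbl2, which encodes the p130 pocket protein of the repressor complex at CHR elements, rose by 2.00 ± 0.07 after adriamycin (adjusted p = 4.78e-13) and by 0.69 ± 0.07 after UV (adjusted p = 3.39e-07). The direct difference was 1.30 ± 0.07 (adjusted p = 4.11e-10). Of the 13 genes 8 fell and 3 rose after adriamycin, with the activator Mybl2 at -0.58 and the MuvB core subunits Lin52 at -0.50 and Lin9 at -0.47. After UV 5 fell and 3 rose, Rbl1 at -0.48 furthest. Against UV, E2f4 (-0.39), Foxm1 (-0.37) and Mybl2 (-0.33) were lower after adriamycin, 6 genes in all against 3 higher.

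Centriole duplication is the setting in which PLK4 works. Of its 21 genes, 14 fell and 2 rose after adriamycin (median -0.254) and 13 fell and 2 rose after UV (median -0.214). Stil, the partner that activates PLK4, fell by 0.51 (SE 0.07, adjusted p = 9.45e-06) after adriamycin, with Cul1, part of the ligase that degrades PLK4, at -0.54 and Cep85 at -0.46. After UV Cul1 (-0.70), Cdk5rap2 (-0.68) and Rttn (-0.62) fell furthest. Ccp110, the cap protein of centriole ends, rose by 1.19 ± 0.06 after adriamycin (adjusted p = 2.33e-11) and by 0.69 ± 0.06 after UV (adjusted p = 3.43e-08). Adriamycin against UV split the list, 8 higher and 3 lower: Rttn by 0.68, Ccp110 by 0.50 and Cep63 by 0.44 (0.02 on its other probe, adjusted p = 0.868), with Cntrob lower at -0.36.

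The partners of PLK2 and PLK3 showed no common direction. Of 9 measured, 3 fell and 1 rose after adriamycin (median 0.003) and 4 fell and 2 rose after UV (median -0.153), or 2 fell with quantile normalization. Sipa1l1, the synaptic protein that PLK2 marks for destruction, fell after adriamycin (-0.73 ± 0.06, adjusted p = 3.73e-08) and UV (-1.05 ± 0.06, adjusted p = 9.8e-10). Ccne1 fell by 0.89 after adriamycin and by 0.16 after UV, the latter no longer with quantile normalization (-0.10, adjusted p = 0.17). Hif1a, at -0.13 after adriamycin, lost its call with quantile normalization (-0.07, adjusted p = 0.275), with the replicate block (adjusted p = 0.0503) and without any 1 of 5 arrays, adriamycin replicates 2, 3 and 4 and mock replicates 1 and 3 (adjusted p from 0.0542 to 0.118). Vrk1, a substrate of PLK3, fell after UV (-0.42). Fbxw7, the substrate receptor for cyclin E, rose by 1.24 ± 0.05 after adriamycin and 0.74 ± 0.05 after UV. Its second probe gave 0.46 after UV (adjusted p = 0.0586).

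Immediate early genes, the class in which Plk2 and Plk3 were found, were split after adriamycin and mostly higher after UV. Of 24, 10 rose and 9 fell after adriamycin (median -0.023), and 13 rose and 3 fell after UV (median 0.164), or 5 fell with arrays centred on their medians. Btg2, a known p53 target, rose by 2.46 ± 0.07 after adriamycin and 2.42 ± 0.07 after UV, and Fosl1 by 1.96 ± 0.14 and 1.94 ± 0.14. Fos rose by 1.06 after adriamycin and Jun by 1.33 after UV, while Ier3 fell after both (-1.22 and -0.85). Set directly against UV, 15 of the 24 were lower after adriamycin and none was higher by this fit (1 without mock replicate 1 or mock replicate 4), Atf3 by -0.99, Myc by -0.97 and Ier2 by -0.78. Plk3 had -0.88 in that same comparison and Plk2 0.28.

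The adriamycin effect was set between the lines for the same lists. The adjusted p-values here come from the test of the difference of effects, which was made outside limma. Of the named partners, Rbl2 had the higher effect in R1E (1.93 ± 0.15, test of the difference, adjusted p = 2.38e-08). So did Fbxw7 (1.48 ± 0.14, adjusted p = 9.19e-07, but 0.63 on its second probe, adjusted p = 0.0644). Ccp110 (1.39 ± 0.17, adjusted p = 1.76e-05), Gtse1 (0.87) and Mastl (0.71) also had the higher effect in R1E. Fbxo5 (-1.21 ± 0.18, adjusted p = 7.99e-05), Ccne1 (-1.17 ± 0.13, adjusted p = 4.89e-06), Usp28 (-0.89), Fzr1 (-0.88) and Racgap1 (-0.68) had the lower effect there. Of all genes 11.4% were lower and 10.4% higher in this difference. In the docking list 4 of 27 genes were lower and 3 higher. In the centriole list 1 of 21 was higher, Ccp110, and none lower (3 higher and 2 lower with a spread shared by all 18 arrays). For mitotic entry genes 3 of 13 were lower and 1 higher, and for checkpoint genes 3 of 12 lower and 2 higher. For the transcription regulators 2 of 13 were lower and 1 higher, and for partners of PLK2 and PLK3 2 of 9 lower and 2 higher. Immediate early genes had 8 of 24 lower and 5 higher. Several of these counts moved by over 1.5 times when 1 array of the p53-/- set was left out. Docking genes were 2 lower without adriamycin replicate 2, 1 higher without untreated replicate 2 and 5 higher without untreated replicate 3. Mitotic entry genes were 1 lower without adriamycin replicate 2. Of the checkpoint genes none was higher without adriamycin replicate 1, adriamycin replicate 3 or untreated replicate 2, and 1 was without adriamycin replicate 2 or untreated replicate 1. Transcription regulators were 1 lower without adriamycin replicate 1, 2 or 3 and on the second probe, and 2 higher without untreated replicate 3. Centriole genes were 1 lower without adriamycin replicate 3. Partners of PLK2 and PLK3 were 1 higher on the second probe and without adriamycin replicate 1, 2 or 3 or untreated replicate 1 or 2. They were 1 lower without adriamycin replicate 2 or 3.

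**Figure D4:**
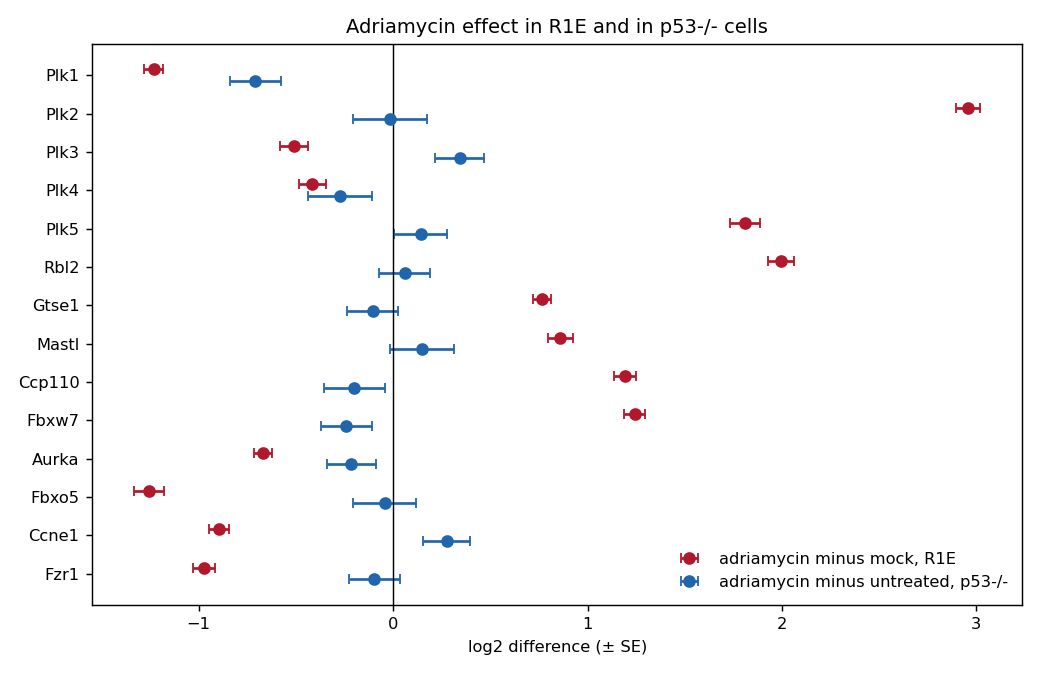
Log2 difference after adriamycin (x axis, points with bars of 1 SE) in R1E cells and in p53-/- cells, for the polo-like kinases and 9 partner genes (rows). Plk2, Plk5 and Rbl2 lie above 1.8 in R1E and within 0.15 of 0 in p53-/- cells, whereas Plk4's points lie within 0.15 of each other.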

How the data were processed

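Total RNA was labelled with a whole-transcript kit, per the labels' protocols. What the authors deposited is a log2 intensity for each probe on each array. R1E arrays went, per the submitters' processing notes, through Affymetrix Expression Console 1.1, with an algorithm not given in the sources used here, and p53-/- arrays through RMA in Partek 6.4. Of 28853 probes, 28815 had values on all 18 arrays and 21780 of these named 1 gene, 1605 several and 5430 none. Where several probes named a gene (998 genes), the brightest on average stood for it, which left 19935 genes. The level of the deleted p53 gene was not analysed here.

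Groups came from the sample titles. Effects were fitted with limma 3.58.1 (R 4.3.3, lmFit and eBayes), in 1 fit over the 12 R1E arrays and 1 over the 6 p53-/- arrays, and called at a Benjamini-Hochberg adjusted p under 0.05 over all genes. The difference of effects was put to a t-test outside limma, with each set's own limma standard error and Satterthwaite degrees of freedom. Members, lists and tests were chosen with earlier results of these data known. Named genes were the family, and per list and comparison the 3 largest called changes in the direction with more calls and 1 against it, with marker lists given as counts, and per member the 4 genes of highest correlation. Some are given for part of the comparisons. Some listed genes are not reported here. A planned comparison of protein sequences was not made.

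The fits were tested on simulated data, in 3 simulations. Of 19935 genes, 200 were given a change, or 400 for adriamycin against UV and for the difference of effects. In the measured data 47.7% of genes were called after adriamycin and 43.9% after UV in R1E. For adriamycin against UV it was 42%, in p53-/- cells 0.0953% and for the difference 21.7%. The percentages that follow hold for the simulated setting and may not carry over. In R1E the fits recovered 97% to 99.2% of 1.5-fold changes. In p53-/- cells they recovered 16.7% of these and 69% of larger ones, so genes not called there may still have changed. The difference of effects recovered 46.8% and 85%. False calls made up 2.61% to 4.7% of calls within a set, but 8.15% for the difference of effects. That share lies above the threshold of 0.05, so some called differences between the lines may be false. Alternatives covered normalization, centring, dim genes, probe, prior, arrays in the fit, a replicate block, array weights, a shared spread and each array left out.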

Additional observations from a re-analysis of the deposited data

Results flagged for a closer look

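Among the R1E groups of 4 arrays, adriamycin replicate 2 stood apart for Plk4, at 7.636 against 7.76 to 7.77 on the other 3 arrays. Of 15 such groups tested (5 genes in 3 groups) it was the only one, and chance flags about 1 in 20.

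Outside the chosen members, the adriamycin effect of the genes below differed between R1E and p53-/- cells by the test of the difference itself. Values are given on the log2 scale as R1E minus p53-/-. In the family the differences were -0.52 for Plk1, 2.97 for Plk2, -0.85 for Plk3 and 1.67 for Plk5. Those of Plk1 to Plk3 belong to contrasts for which the members were chosen, so they are a description and not a test result. Among mitotic partners they were -0.46 for Aurka, -0.73 for Cdc25b, -0.64 for Cdk1, 0.71 for Mastl, -0.78 for Ercc6l, -1.21 for Fbxo5, 0.87 for Gtse1 and -0.68 for Racgap1. Among checkpoint genes they were -0.50 for Cdc14b, 0.64 for Chek2, -0.88 for Fzr1 and -0.89 for Usp28. The transcription regulators had -0.62 for Lin52, -0.63 for Mybl2 and 1.93 for Rbl2, and the centriole gene Ccp110 had 1.39. The PLK2 and PLK3 partners had -1.17 for Ccne1, 1.48 for Fbxw7 and -0.59 for Sipa1l1, and the immediate early genes 2.00 for Btg2, -0.95 for Dusp1, -1.09 for Ier3 and -0.78 for Klf2. The calls of Aurka, Cdk1, Cdc14b, Chek2, Ercc6l, Lin52, Mybl2 and Sipa1l1 were lost when single p53-/- arrays were left out (adjusted p from 0.0501 to 0.126), that of Lin52 also on its second probe (adjusted p = 0.255), and that of Fbxw7 on its second probe (adjusted p = 0.0644). These differences do not separate line from genotype, array set or software.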

How the results depend on the processing

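Of 380 recomputed changes of Plk1 to Plk4, 374 moved by less than the spread between replicates and none of those called changed sign. Many of the 380 could not move. A changed prior, dim genes left out, the arrays in the fit, the replicate block and the shared spread alter only the error. The same holds for leaving out an array outside the comparison. Values free to move were not counted apart. With arrays centred on their medians Plk1 was at -1.32 after adriamycin and -0.32 after UV in R1E, and Plk2 at 2.87 and 2.58. Quantile normalization gave Plk1 -1.15 and -0.16. Over all genes centring gave 7868 lower genes after adriamycin and 2918 higher after UV in R1E, and the share of calls that were higher was 30.7% in place of 46.3% after adriamycin, 32.9% in place of 51.6% after UV, and 0% in place of 15.8% in p53-/- cells, where no gene was then called higher. With dim genes left out, so that fewer genes were tested, 2908 were higher after adriamycin in R1E and 1 in p53-/- cells. In p53-/- cells, with 3 genes higher and 16 lower, array weights gave 702 higher and 736 lower. Leaving out 1 array gave 0 to 135 higher and 0 to 307 lower there, both maxima without untreated replicate 3; the cause was not tested. Deviations from the group means correlated between -0.142 and 0.163 for same-numbered R1E arrays, where other pairs ran from -0.423 to 0.391. In p53-/- cells same-numbered arrays ran from -0.103 to 0.191, and other pairs from -0.169 to 0.081. These values do not settle whether the replicate numbers of the labels pair the arrays. With the number as a replicate block 0 genes were higher and 5 lower in p53-/- cells. Among 136 named gene values 22 lost their call in at least 1 alternative and none reversed. In the difference between lines Aurka, Cdk1, Cdc14b, Chek2, Ercc6l, Lin52, Mybl2 and Sipa1l1 lost it without single p53-/- arrays (adjusted p from 0.0501 to 0.126), and Lin52 on its second probe (adjusted p = 0.255). Among the list counts 69 moved and 1331 did not move by over 1.5 times. In UV against mock Cdc25a lost it without mock replicate 3 or UV replicate 3 (adjusted p = 0.0639 and 0.069).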
